A study of Mus musculus with 6 samples.

Results

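The 10 genes described here are the bone morphogenetic protein (BMP) ligand genes Bmp2 and Bmp4, the antagonist gene Grem1, the receptor genes Bmpr1a and Bmpr2, the signal transducer genes Smad1 and Smad6, and the Id genes Id1, Id2 and Id3. They were taken by symbol from a count table of 23420 genes, and each of the 10 symbols matched 1 row. The libraries came from mouse embryonic fibroblasts (MEFs) of a mixed 129/Sv-C57BL/6 strain that carry E1A, an adenoviral oncogene, and HrasG12V, an activated Ras; control and p53-targeted cells share both oncogenes. Each of 3 lines gave a library with a non-targeting guide (sgNTC), in which p53 is wild-type, and a library with the p53 guide sgp53(1), here sgp53. By their labels, sgp53 cells were p53 null in lines 1 and 3 and functionally inactive in line 2. All cells were kept in high glucose DMEM with fetal calf serum at 5% oxygen for 24 h before harvest. Whether a line is a clone or a pool, or has an embryo of its own, is not in the labels. The names of the count columns give lines 2 and 3 a shared source number that line 1 does not have; what it stands for is not stated, so lines 2 and 3 may be less independent of each other, and p-values measure the spread between these lines.

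BMP ligands bind pairs of type I and type II serine/threonine kinase receptors, which phosphorylate SMAD1, SMAD5 and SMAD9; these join SMAD4 in the nucleus and turn on target genes. Id1, Id2 and Id3 are classic targets: their proteins bind E proteins and keep them off DNA. SMAD6 is both a target and an inhibitor of the pathway, and secreted antagonists such as gremlin hold the ligands away from their receptors.

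In the sgp53 libraries Smad6, the inhibitory target, rose 10.4-fold and the target Id3 rose 1.79-fold, while the groups overlapped for the receptor genes and Smad1. Smad6 and Id3 were the 2 of 10 members that passed the test (edgeR quasi-likelihood, Benjamini-Hochberg adjusted p under 0.05 over all 13044 tested genes). The calls took in 2.76% of all tested genes as higher and 3.69% as lower. The 3 libraries of each group did not overlap for 7 of the 10 members, all higher in sgp53 (Bmp2, Bmp4, Grem1, Smad6, Id1, Id2 and Id3), against 17.8% of all tested genes not overlapping in that direction. The same 7 had an unadjusted p under 0.05, against 13.9% of all tested genes higher at that level. DESeq2 called 6 members higher, all of these but Bmp2, where it called 9.17% of all genes higher; limma-voom called Smad6 and Id3, where it called 2.18% higher. With the line as a block, which called 0.966% of all genes higher, edgeR called Smad6 alone among the members. The median log2 fold change was 1.02 over the members and -0.01 over all tested genes. The members were chosen with earlier results of these data known, so these shares and medians are a description and do not test the pathway. Bmp2 reached the filter on low counts only through its sgp53 libraries; without it 6 of 9 members had separate groups and an unadjusted p under 0.05, and their median was 0.84. In bulk RNA, more cells that make a transcript and more of it per cell cannot be told apart.

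**Figure D1:**
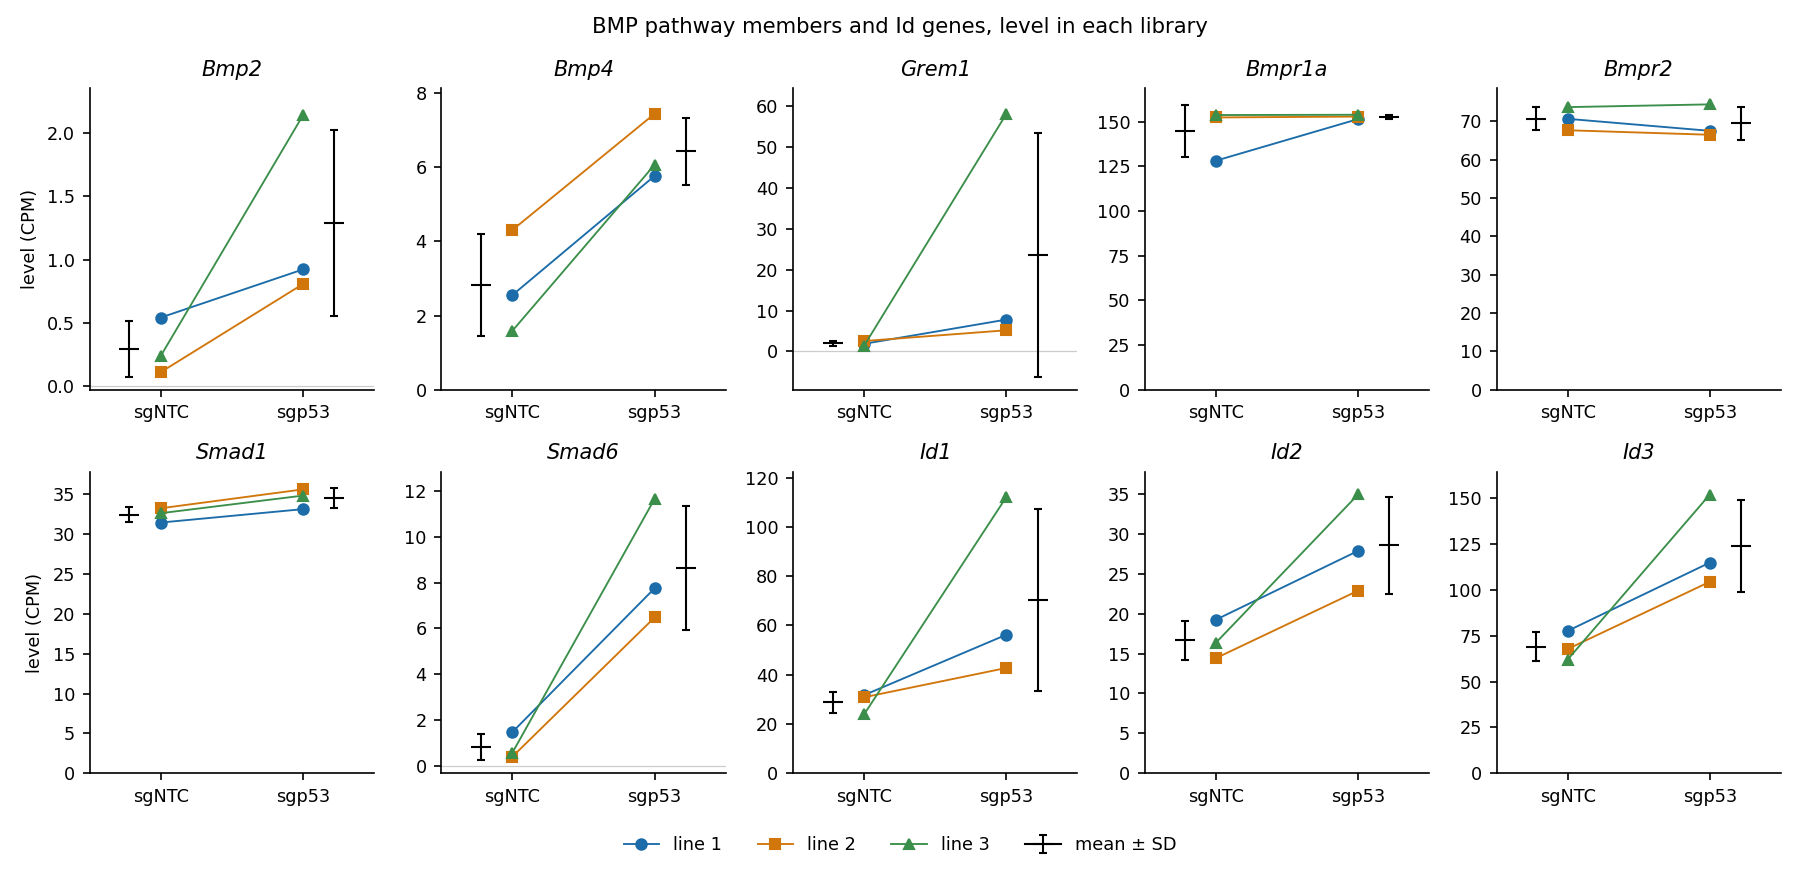
Level of each of the 10 genes in CPM (read counts scaled to a normalized library total, own scale per panel) in the sgNTC and sgp53 library of lines 1, 2 and 3, joined by line, with group mean ± SD (n = 3) beside the points. Smad6, Id1, Id2, Id3, Bmp2, Bmp4 and Grem1 were higher in every sgp53 library than in any sgNTC library, and line 3 gave the highest sgp53 value in 6 of these 7 genes.

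Smad6 and Smad9, which encode an inhibitory and a receptor-activated SMAD, were both called higher, and the promoter sequence before their start sites is shown because SMAD proteins bind DNA directly. SMAD complexes are known to bind GTCT, which reads AGAC from the opposite strand, and the GC-rich motifs GGCGCC (its own reverse complement) and GGAGCC, which reads GGCTCC from the opposite strand. Matches on both strands are in capitals; at the end of the Smad6 sequence a GTCT match and its reverse lie side by side. The sequences are from RefSeq on GRCm38.p6: chr9:64022056-64022309, minus strand, from 250 bases before the Smad6 start to 4 bases after it, and chr3:54755332-54755581, plus strand, the 250 bases before the Smad9 start.
Smad6 promoter: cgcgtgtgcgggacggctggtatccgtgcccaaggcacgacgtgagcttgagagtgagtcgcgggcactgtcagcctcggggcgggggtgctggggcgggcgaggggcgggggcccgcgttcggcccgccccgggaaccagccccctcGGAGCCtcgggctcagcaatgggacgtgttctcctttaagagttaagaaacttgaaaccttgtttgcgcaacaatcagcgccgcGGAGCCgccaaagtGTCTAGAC
Smad9 promoter: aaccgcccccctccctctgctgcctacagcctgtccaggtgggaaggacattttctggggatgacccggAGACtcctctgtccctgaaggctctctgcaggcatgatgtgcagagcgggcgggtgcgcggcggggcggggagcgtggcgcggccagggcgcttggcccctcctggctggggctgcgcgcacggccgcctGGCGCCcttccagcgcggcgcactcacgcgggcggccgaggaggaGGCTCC
The Smad6 sequence holds GGAGCC at -102 and -18 and the palindrome GTCTAGAC at -4, counted from the start site to the first base of the match on the printed strand. Over all 32851 RefSeq promoters of 300 bases, 0.213% hold GTCTAGAC, 30.8% hold GGAGCC, 11.9% hold GGCGCC and 88.0% hold GTCT. GTCTAGAC is in 1 of 8 member promoters, that of Smad6, and in 0 of 49 promoters of the further lists. The Smad9 sequence has GGCGCC at -51, a reverse-strand match of GGAGCC at -6 and a reverse-strand match of GTCT at -181. Of the 8 members with a promoter in the table (Bmp2 and Id1 have none), 4 hold GGCGCC, 4 hold the motif GGAGCC and 6 hold the motif GTCT. Those with GGCGCC are Id2, Grem1, Bmpr1a and Bmpr2, so members with overlapping groups and members with separate groups both carry it. A match is a run of letters and not a measured binding site.

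Of the ligand genes among the members, Bmp2 was near the floor of detection in the control cells. Bmp2 (chromosome 2, 133552159 to 133562885 on GRCm38) had 18, 3 and 7 reads in sgNTC lines 1, 2 and 3, or 0.541, 0.109 and 0.237 CPM, and 27, 29 and 61 reads in the sgp53 libraries, or 0.922, 0.806 and 2.14 CPM. Every sgp53 library was above every sgNTC library, but the gap between 0.541 and 0.806 CPM is small. The log2 fold change was 2.08 (SE 0.65, adjusted p = 0.0995 by edgeR), which did not pass. Bmp2 cleared the filter on low counts through the sgp53 group, since only 1 sgNTC library reached the 0.337 CPM that 10 reads stand for.

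Bmp4 (chromosome 14, 46383520 to 46390669) was at 2.55, 4.31 and 1.59 CPM in sgNTC lines 1, 2 and 3 and at 5.77, 7.45 and 6.07 CPM in sgp53. The groups were apart, and line 2 was the highest line in both. Its log2 fold change of 1.19 (SE 0.36) had an edgeR adjusted p of 0.0947. Exons of Bmp4 overlap the gene Gm15217 on the opposite strand, and the strand setting of the read counting is not given, so reads of the pair cannot be told apart.

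Grem1 (chromosome 2, 113746164 to 113758646), which encodes the secreted BMP antagonist gremlin, was at 1.86, 2.54 and 1.42 CPM in sgNTC and at 7.78, 5.17 and 58.1 CPM in sgp53. All sgp53 libraries were above the controls, and sgp53 line 3 stood far above the other sgp53 lines. Means were 1.94 ± 0.561 CPM in sgNTC and 23.7 ± 29.8 CPM in sgp53 (SD, n = 3), with a log2 fold change of 3.61 (SE 1.00) and an edgeR adjusted p of 0.0794. Without sgp53 line 3 the log2 fold change was 1.74 (edgeR adjusted p = 0.0607). DESeq2 called Grem1 (adjusted p = 0.00580) and limma-voom did not (adjusted p = 0.268).

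The receptor genes had overlapping groups. Bmpr1a (chromosome 14, 34410734 to 34503341), a type I receptor, was at 128, 152 and 154 CPM in sgNTC and at 151, 153 and 154 CPM in sgp53. Only sgNTC line 1 stood below the others; the log2 fold change was 0.08 (SE 0.08, adjusted p = 0.550 by edgeR). Exons of Bmpr1a overlap Gm17110 on the opposite strand. Bmpr2 (chromosome 1, 59763400 to 59879014), the type II receptor, was at 70.7, 67.7 and 73.7 CPM in sgNTC and at 67.5, 66.5 and 74.4 CPM in sgp53. The ranges of Bmpr2 lie on top of each other, with a log2 fold change of -0.02 (SE 0.07, adjusted p = 0.835 by edgeR).

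Of the signal transducers, the groups overlapped for the activator gene and were far apart for the inhibitor gene. Smad1 (chromosome 8, 79338395 to 79399518) was at 31.5, 33.3 and 32.6 CPM in sgNTC and at 33.2, 35.6 and 34.8 CPM in sgp53, with a log2 fold change of 0.09 (SE 0.07, adjusted p = 0.405 by edgeR). The Smad1 groups touch: sgp53 line 1 lies below sgNTC line 2.

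Smad6 (chromosome 9, 63953076 to 64022059) had 49, 11 and 17 reads in sgNTC lines 1, 2 and 3 and 227, 233 and 332 reads in sgp53. These are 1.47, 0.399 and 0.576 CPM against 7.75, 6.48 and 11.7 CPM. The lowest sgp53 library was above the highest control by more than the whole range of the controls. The log2 fold change was 3.38 (SE 0.52, adjusted p = 0.0226 by edgeR), and Smad6 remained called with the line as a block (edgeR adjusted p = 0.0478). Smad6 missed the threshold without sgNTC line 3 (edgeR adjusted p = 0.0927), sgp53 line 1 (0.0750) or sgp53 line 3 (0.0557), and without both libraries of line 1 (0.0623), line 2 (0.0979) or line 3 (0.174). Its log2 fold change lay between 2.91 and 4.20 in all 15 alternatives run.

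The Id genes are the best known readout of BMP signalling, and in each line their sgp53 library had the higher level. Id1 (chromosome 2, 152736251 to 152737410) was at 31.7, 30.9 and 24.0 CPM in sgNTC and at 56.2, 42.7 and 112 CPM in sgp53. Line 3 had the lowest control and the highest sgp53 value, so the sgp53 spread of Id1 was wide (70.4 ± 36.8 CPM, SD, n = 3). The log2 fold change of 1.28 (SE 0.36) did not pass (edgeR adjusted p = 0.0794), and without sgp53 line 3 it was 0.78 (edgeR adjusted p = 0.0834).

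Id2 (chromosome 12, 25093799 to 25097140) was at 19.2, 14.4 and 16.4 CPM in sgNTC and at 27.9, 22.9 and 34.9 CPM in sgp53. The groups did not overlap, and the log2 fold change of 0.77 (SE 0.18) had an edgeR adjusted p of 0.0584. Id3 (chromosome 4, 136143497 to 136145755) was at 77.6, 67.7 and 62.0 CPM in sgNTC and at 114.8, 104.4 and 152 CPM in sgp53. Every sgp53 library of Id3 was well above the controls, with a log2 fold change of 0.84 (SE 0.16, adjusted p = 0.0343 by edgeR). The Id3 call was lost with the line as a block (edgeR adjusted p = 0.0810). It was also lost without sgNTC line 2 (0.0954), sgNTC line 3 (0.122) or sgp53 line 1 (0.0923), and without line 1 (0.127), line 2 (0.114) or line 3 (0.143).

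**Figure D2:**
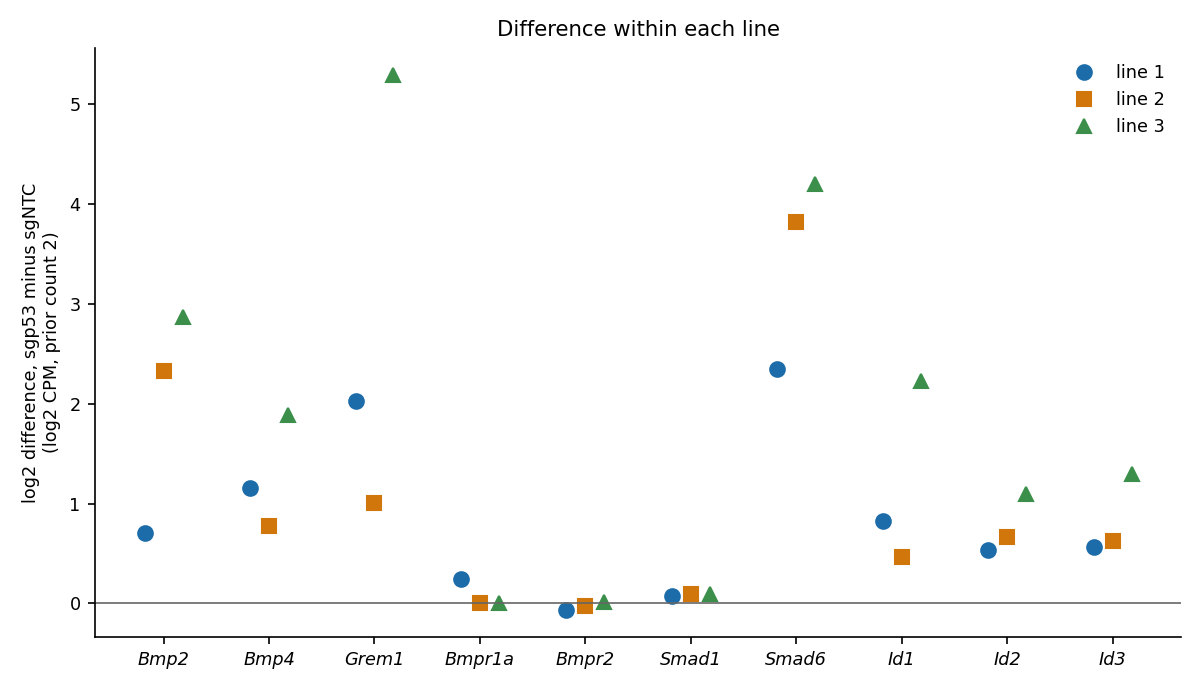
Difference in log2 CPM (prior count 2) between the sgp53 and the sgNTC library of the same line, for each of the 10 genes; 1 point per line. Line 3 has the highest point for Bmp2, Bmp4, Grem1, Smad6, Id1, Id2 and Id3, and Bmpr1a, Bmpr2 and Smad1 stay between -0.07 and 0.24 in every line.

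For the 7 members with separate groups, a higher sgp53 library in each line follows from that separation, and only the size of the difference is new here. Smad1 (0.075, 0.099 and 0.094 in lines 1, 2 and 3) and Bmpr1a (0.241, 0.0046 and 0.0014) also had positive differences in each line. For Bmpr2 the difference was -0.07, -0.03 and 0.01. The Smad6 difference in log2 CPM was 2.35, 3.82 and 4.19 in lines 1, 2 and 3. For Id1 it was 0.82, 0.47 and 2.22, for Id2 0.53, 0.66 and 1.09, and for Id3 0.57, 0.62 and 1.29. Line 3 had the largest difference in each of these genes. Line 2, whose sgp53 cells are labelled functionally inactive and not null, had the smallest for Id1, and line 1 for Smad6, Id2 and Id3. Grem1 differed by 2.02, 1.01 and 5.29, Bmp4 by 1.16, 0.78 and 1.89, and Bmp2 by 0.70, 2.33 and 2.87. Across all tested genes, sgp53 line 3 was the highest of the sgp53 libraries for 4886 of 13044, against 8 of the 10 members.

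Levels of different genes compare only per length, here CPM per kilobase of GENCODE M21 exon. In sgNTC, Id3 was highest (38.6 ± 4.41 CPM per kilobase, SD, n = 3), then Id1 (24.9 ± 3.67) and Bmpr1a (22.8 ± 2.26), which do not differ beyond their spread. Id2 (6.84 ± 0.994), Smad1 (5.18 ± 0.145) and Bmpr2 (3.93 ± 0.168) followed. The lowest were Bmp4 (1.25 ± 0.614), Grem1 (0.468 ± 0.135), Smad6 (0.255 ± 0.180) and Bmp2 (0.0831 ± 0.0625). In sgp53, Id3 (69.1 ± 13.9) and Id1 (60.7 ± 31.7) were highest and within each other's spread, while Smad6 (2.69 ± 0.841) stood beside Bmp4 (2.86 ± 0.398). Id transcripts were more abundant per length than those of both ligands in each group.

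The rest of the pathway was read from 61 further genes in 6 lists, of which 48 passed the filter on low counts. Of these 48, 5 were called higher and 0 lower by edgeR, beside 2.76% and 3.69% over all tested genes. At an unadjusted p under 0.05, 19 of the 48 were higher and 1 was lower, beside 13.9% and 15.1% of all tested genes. DESeq2 called 14 higher and 0 lower, beside 9.17% and 9.00% of all genes, and limma-voom 4 and 0, beside 2.18% and 3.17%. The called genes were Atoh8, Smad9, Fstl1, Tll1 and Bmp6. The median log2 fold change of the 48 was 0.30, beside -0.01 over all tested genes. The lists were also chosen with earlier results of these data known, so these shares are a description and not a test. Of the 48, 7 were under the filter's CPM level in at least 1 sgNTC library, so they needed their sgp53 libraries to pass the filter. Some of these 7, with Nog, Bmper and Hey1 among them, are in the 19 counted as higher. Nog and Bmper are also in the 14 called by DESeq2. Counts without the 7 were not made.

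Among 9 tested further targets, 1 (Atoh8) was called higher and 0 lower, beside 2.76% and 3.69% of all tested genes. At an unadjusted p under 0.05, 2 of the 9 were higher (13.9% of all tested genes), and DESeq2 called 1 (9.17%). Groups were separate with sgp53 higher for 2 (17.8%) and with sgp53 lower for 1. Of the 9, 2 were under the filter's CPM level in at least 1 sgNTC library. Hey1 is among these and is included in the counts of higher genes at an unadjusted p and of separate groups. Counts without it were not made. The median log2 fold change of the 9 was 0.09. Atoh8, a basic helix-loop-helix factor that BMP signals induce, was at 0.781, 0.399 and 0.677 CPM in sgNTC and at 4.71, 4.67 and 9.51 CPM in sgp53. The groups were far apart, with a log2 fold change of 3.33 (SE 0.42, adjusted p = 0.0130 by edgeR), close to that of Smad6 (3.38); the difference between the 2 genes was not tested. Atoh8 missed the threshold without sgNTC line 3 (edgeR adjusted p = 0.0684) and without line 1 (0.0889), line 2 (0.0853) or line 3 (0.109). The other 8 tested targets were not called: Msx2, Hey1, Runx2, Gata2 and Gata3 had positive and Msx1, Tbx3 and Nkx2-5 negative fold changes. Id4, the remaining Id gene, had 17 reads over the sgNTC libraries and 62 over the sgp53 libraries and was too low to be tested.

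Of 9 SMAD genes and regulators, 1 (Smad9) was called higher and 0 lower, beside 2.76% and 3.69% of all tested genes. At an unadjusted p under 0.05, 3 of the 9 were higher (13.9% of all tested genes), and DESeq2 called 1 (9.17%). Groups were separate with sgp53 higher for 3 (17.8%) and with sgp53 lower for 2. The median log2 fold change of the 9 was 0.04. Smad9, the third receptor-activated SMAD of the BMP branch and itself a target, was at 3.28, 3.12 and 3.49 CPM in sgNTC and at 11.0, 7.70 and 14.4 CPM in sgp53. The controls were tight and every sgp53 library was above them, with a log2 fold change of 1.74 (SE 0.25, adjusted p = 0.0180 by edgeR). Smad9 missed the threshold without sgNTC line 2 (edgeR adjusted p = 0.0573), sgNTC line 3 (0.0766) or sgp53 line 1 (0.0700), and without line 1 (0.132), line 2 (0.0602) or line 3 (0.136). Smad5 and Smad4, the other transducers, had log2 fold changes of 0.14 (SE 0.07) and 0.04 (SE 0.06) and were not called. Smad7, the other inhibitory SMAD, was at 56.3, 72.2 and 65.6 CPM in sgNTC and at 61.3, 58.9 and 61.2 CPM in sgp53, so its groups overlapped where those of Smad6 did not (Smad4, Smad5 and Smad7 were named after their values were seen).

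**Figure D3:**
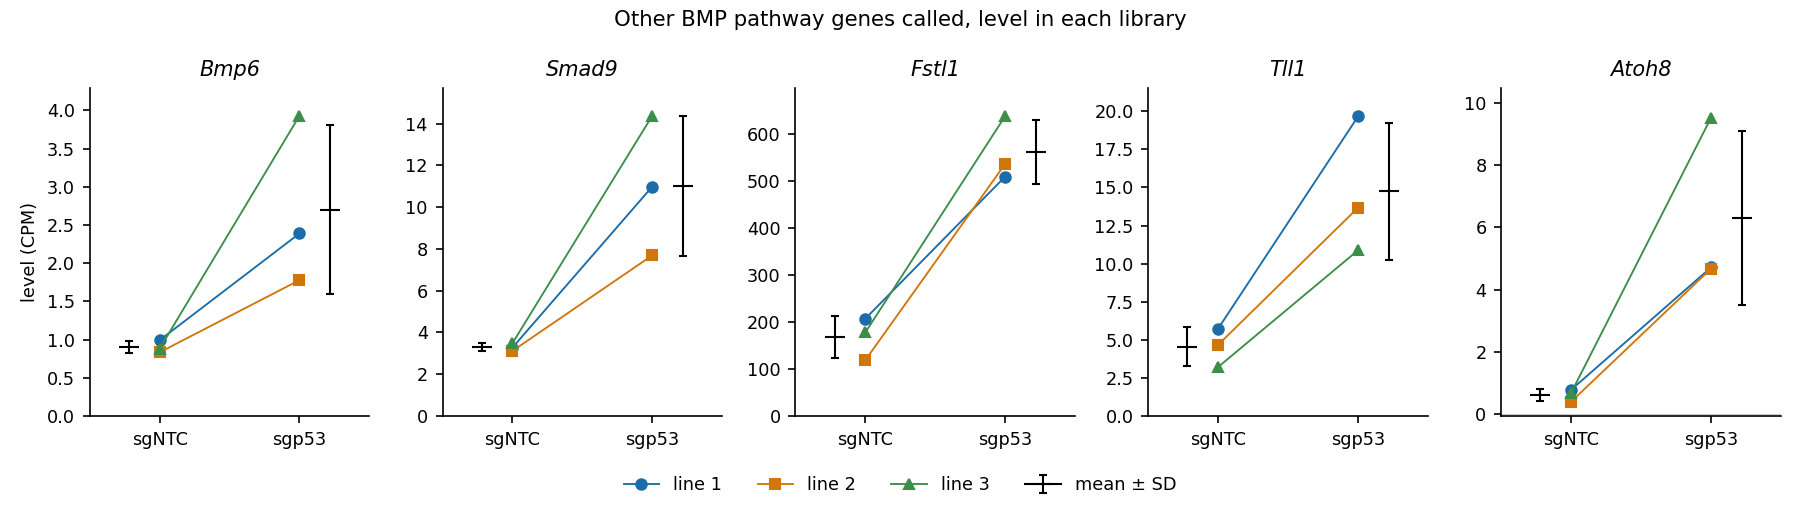
Level in CPM (own scale per panel) of the 5 called genes of the further lists in the sgNTC and sgp53 library of each line, with group mean ± SD (n = 3). In each gene the lowest sgp53 library is above the highest sgNTC library; Tll1 is highest in sgp53 line 1, the other 4 genes in sgp53 line 3.

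Of 13 tested secreted antagonists and modulators, Fstl1 and Tll1 were called higher and 0 lower, beside 2.76% and 3.69% of all tested genes. At an unadjusted p under 0.05, 7 of the 13 were higher (13.9% of all tested genes), DESeq2 called 7 (9.17%), and 8 had separate groups with sgp53 higher (17.8%). Of the 13, 3 were under the filter's CPM level in at least 1 sgNTC library and passed the filter through sgp53. Nog and Bmper are among these 3 and are included in each count of higher genes. Counts without them were not made. Fstl1, a secreted follistatin-like glycoprotein, was at 207, 119 and 178 CPM in sgNTC and at 509, 536 and 638 CPM in sgp53, with a log2 fold change of 1.74 (SE 0.21, adjusted p = 0.0112 by edgeR). The Fstl1 call was lost without sgNTC line 3 (0.0574) and without both libraries of line 1 (0.0657) or line 3 (0.138). Tll1, an astacin protease that cleaves the BMP antagonist chordin, was at 5.74, 4.67 and 3.22 CPM in sgNTC and at 19.7, 13.7 and 10.9 CPM in sgp53. The order of the lines was the same in both groups for Tll1, and its log2 fold change was 1.70 (SE 0.30, adjusted p = 0.0294 by edgeR). The Tll1 call was lost without sgNTC line 2 (0.0825), sgNTC line 3 (0.0957), sgp53 line 1 (0.0867) or sgp53 line 2 (0.0662), and without line 1 (0.108), line 2 (0.135) or line 3 (0.116).

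The antagonist genes Nog, Bmper and Nbl1, named after their values were seen, were also higher in sgp53 without passing in edgeR. This was not shared by all 13 tested genes of the list: 4 had overlapping groups, and 1 had separate groups with sgp53 lower. Nog, which encodes noggin, had 7, 0 and 2 reads in sgNTC and 68, 55 and 10 in sgp53, so its controls were at the floor and sgp53 line 3 was close to them. Its fitted log2 fold change of 3.80 (SE 1.01, adjusted p = 0.0729 by edgeR, 0.00784 by DESeq2) depends on the prior count, and Nog passed the filter only through sgp53. Bmper, a secreted BMP-binding protein, was at 1.23, 0.326 and 0.610 CPM in sgNTC and at 3.55, 2.28 and 5.37 CPM in sgp53, with separate groups and a log2 fold change of 2.35 (SE 0.55, adjusted p = 0.0566 by edgeR, 0.00144 by DESeq2). Without sgNTC line 1 edgeR called Bmper (adjusted p = 0.0426). Nbl1, another antagonist, was at 8.75, 3.51 and 4.81 CPM in sgNTC and at 16.3, 10.3 and 23.3 CPM in sgp53, again apart, with a log2 fold change of 1.54 (SE 0.42, adjusted p = 0.0771 by edgeR, 0.00320 by DESeq2).

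Of 5 tested further ligands, 1 (Bmp6) was called higher and 0 lower, beside 2.76% and 3.69% of all tested genes. Groups were separate with sgp53 higher for 2 (17.8% of all tested genes) and with sgp53 lower for 1, and they overlapped for 2. Of the 5, 2 were under the filter's CPM level in at least 1 sgNTC library, and counts without them were not made. The level of Bmp6 was 0.992, 0.833 and 0.880 CPM in sgNTC and 2.39, 1.78 and 3.93 CPM in sgp53. Its log2 fold change was 1.57 (SE 0.34, adjusted p = 0.0492 by edgeR). This call sits at the threshold: it was lost with the line as a block (edgeR adjusted p = 0.0896), in limma-voom (0.0740), with no filter on low counts (0.0553) and without any 1 library (0.0530 to 0.159) or any 1 line (0.122 to 0.234). Exons of Bmp6 overlap Txndc5 on the opposite strand. The 6 listed ligands that were not tested had 14 reads or fewer in either group.

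No gene of the 9 receptors and coreceptors was called by edgeR or limma-voom; 3 were higher and 1 lower at an unadjusted p under 0.05 (13.9% and 15.1% of all tested genes), and DESeq2 called 1 higher (9.17%). Acvr1, a type I receptor, was at 35.0, 27.5 and 30.7 CPM in sgNTC and at 38.6, 35.3 and 56.2 CPM in sgp53, with a log2 fold change of 0.48 (SE 0.19, adjusted p = 0.158 by edgeR) that was 0.25 without sgp53 line 3 (edgeR adjusted p = 0.280). Tgfbr3, betaglycan, was at 30.4, 31.8 and 31.1 CPM and at 27.4, 26.0 and 60.4 CPM; only sgp53 line 3 was above the controls, and without it the log2 fold change went from 0.28 to -0.22. Eng, endoglin, a coreceptor named after its values were seen, was at 83.4, 5.15 and 51.3 CPM in sgNTC and at 10.8, 10.5 and 11.3 CPM in sgp53. The sgNTC lines differed widely for Eng while the sgp53 lines did not, and it was called lower only without sgNTC line 2 (edgeR adjusted p = 0.00717, against 0.158 with all libraries). Exons of Eng overlap Fpgs on the opposite strand, and those of Tgfbr3 overlap Gm43422 on the same strand.

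The E proteins that ID proteins bind were not called by edgeR or limma-voom; 2 of 3 were higher at an unadjusted p under 0.05 (13.9% of all tested genes), and DESeq2 called these 2 higher (9.17%). Tcf3 was at 199, 204 and 194 CPM in sgNTC and at 226, 219 and 235 CPM in sgp53 (log2 fold change 0.18, SE 0.05, adjusted p = 0.0777 by edgeR). Tcf12 was at 209, 263 and 181 CPM and at 240, 208 and 294 CPM, with overlapping groups (log2 fold change 0.18, SE 0.17, adjusted p = 0.521 by edgeR). The groups of Tcf3 were apart. Tcf4, named after its values were seen, was at 91.2, 91.1 and 86.6 CPM in sgNTC and at 113, 126 and 160.0 CPM in sgp53, the widest separation of the 3 genes. Its log2 fold change was 0.57 (SE 0.13), with an adjusted p of 0.0509 in edgeR and 0.000685 in DESeq2. Tcf4 was called by edgeR with upper-quartile factors (adjusted p = 0.0426), with no filter on low counts (0.0466) and without sgp53 line 3 (0.0464).

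**Figure D4:**
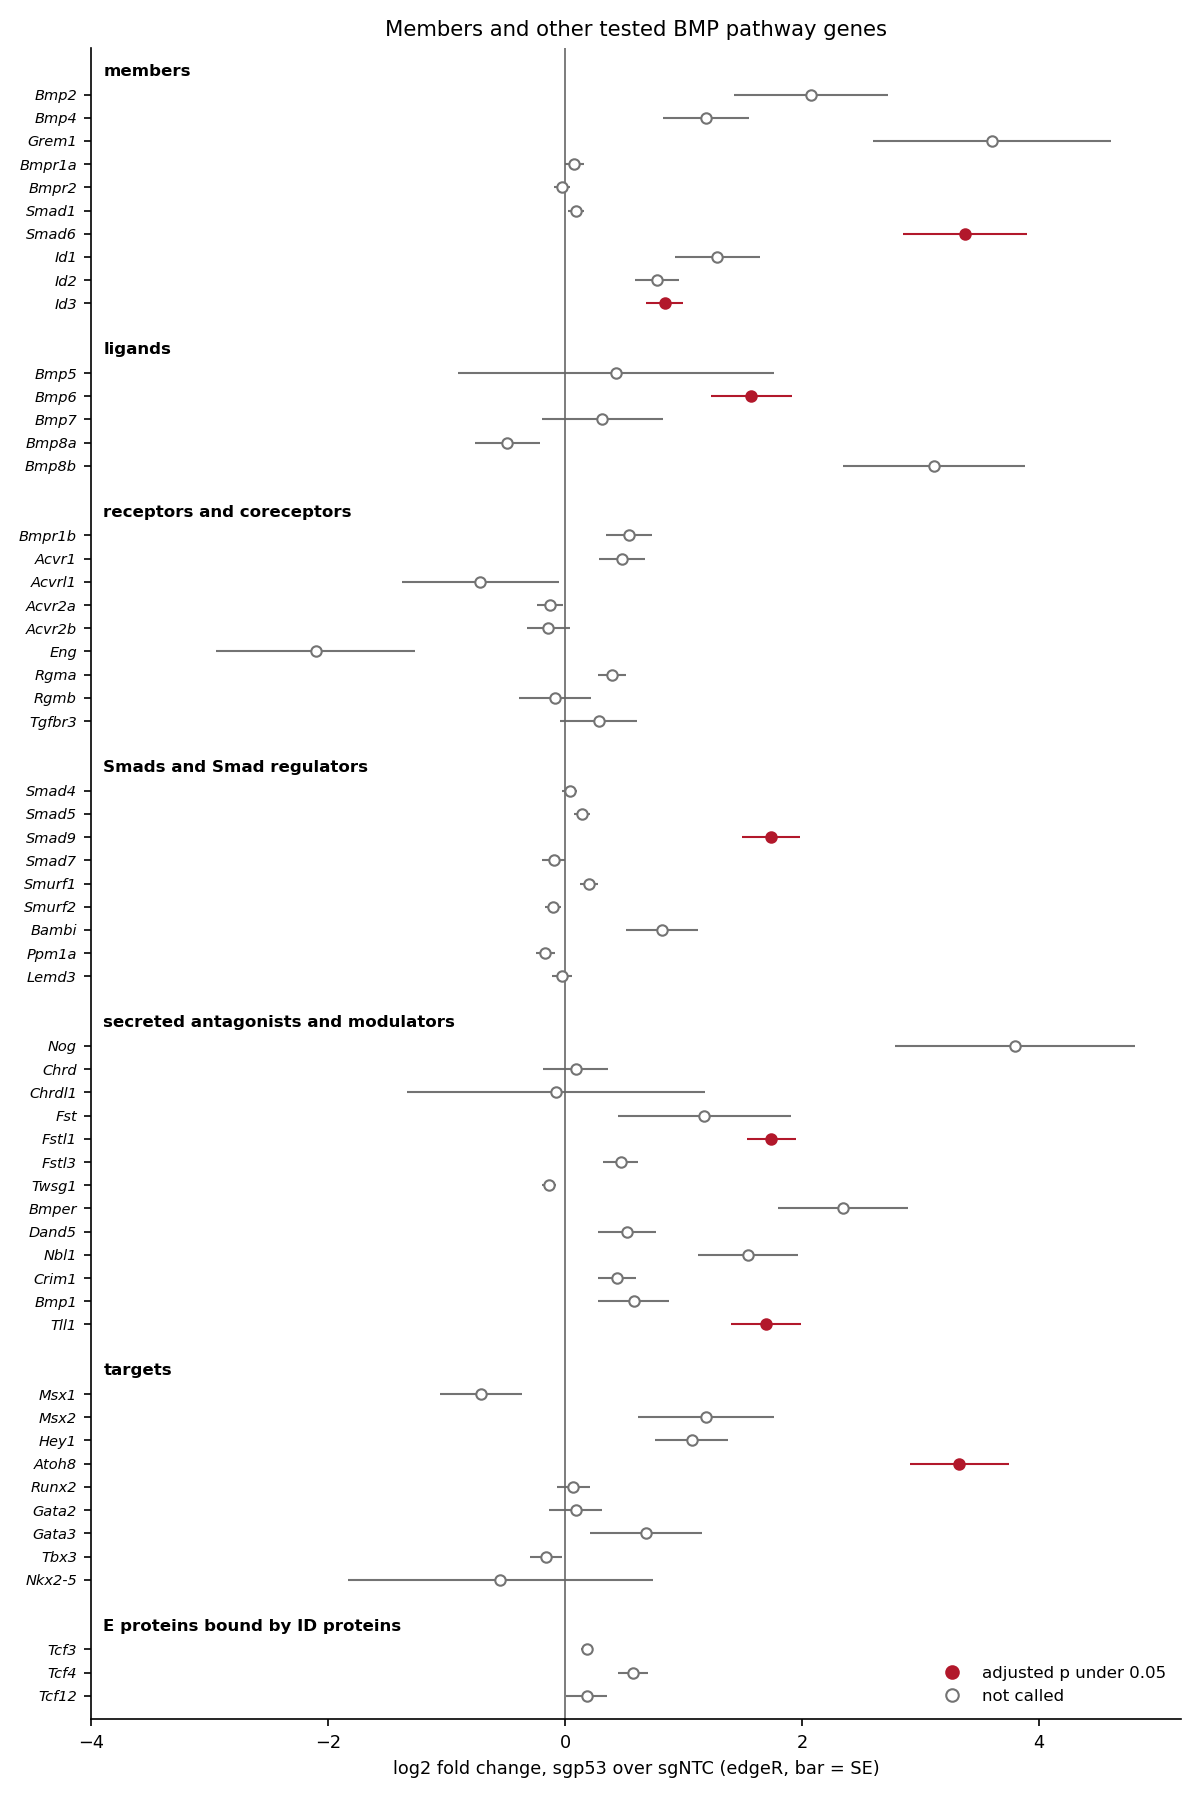
Log2 fold change of sgp53 over sgNTC (edgeR, bars are SE, 3 libraries a group) for the 10 members and the 48 tested genes of the further lists, grouped by role. Filled points passed at an adjusted p under 0.05: Smad6, Id3, Bmp6, Smad9, Fstl1, Tll1 and Atoh8, all to the right of 0, while Bmpr1a, Bmpr2, Smad1, Smad4 and Smad5 lie at 0.14 or less.

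Each Id gene was also set against the 57 other tested genes of the members and lists, by the Pearson correlation of log2 CPM over the 6 libraries. The gene most like Id1 was Grem1 (r = 0.99), that most like Id2 was Nbl1, a secreted BMP antagonist (r = 0.99), and that most like Id3 was Bmp6 (r = 0.99). The sgp53 and sgNTC libraries are apart in all of these genes, so each r holds the group difference and the height of line 3 as well, and it is given as a description. Spearman's rho was 0.94, 1 and 0.94.

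Library totals ran from 27503577 to 35860866 counts. Trp53, the targeted gene, was at 206 to 277 CPM in sgNTC and at 71.1 to 113 CPM in sgp53, and Cdkn1a, which encodes p21, at 647 to 732 and at 73.8 to 101 CPM. Of 9 fibroblast and mesenchymal markers, Col1a1 and Col1a2 were called higher and 0 lower. Col1a1 was at 8.90 ± 3.72 CPM in sgNTC and 459 ± 265 CPM in sgp53, and Col1a2 at 11.0 ± 6.46 and 395 ± 340 CPM. All 9 markers together summed to 5617 to 6660 CPM in sgNTC and 6944 to 9422 CPM in sgp53. Vim, at 3121 ± 322 and 2688 ± 272 CPM, was high, as in fibroblasts, while Thy1, a fibroblast surface marker, was at 0.240, 4.06 and 0.406 CPM in sgNTC and at 4.30, 3.36 and 53.9 CPM in sgp53. The 5 epithelial markers summed to 259 to 646 CPM in sgNTC and 88.7 to 132 CPM in sgp53, with Krt18 called lower, and the 4 blood markers to 8.90 to 10.5 and 3.68 to 4.22 CPM, with Cd68 called lower and Adgre1 (listed as Emr1) at 0. Endothelial and skeletal muscle markers summed to at most 2.65 CPM, and those of nerve and glia, nearly all of it Nes, overlapped between groups. Col1a1, Col1a2, Krt18 and Cd68 thus moved with the same groups as Smad6 and Id3, and the part of other cell types in these results was not tested. The sgp53 library of line 3, highest for most members, was also far above the other sgp53 libraries in the mesenchymal markers Thy1, Pdgfra (131 CPM, against 26.2 and 21.1 in lines 1 and 2) and S100a4 (99.4 CPM, against 8.57 and 15.8). It also had 3338 CPM of the ribosomal RNA precursor Rn45s, against 636 to 864 CPM in the others.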

How the data were processed

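RNA was measured in 6 libraries, 3 per group. The authors deposited raw read counts, 1 row per gene symbol, without normalization; per the submitters' processing notes, CASAVA 1.8, STAR, DESeq2 and the build mm10 were used, with no role stated. Which counter, annotation and strand setting were used is not given in the sources used here.

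Counts were normalized by TMM and filtered with filterByExpr (minimum count 10), and tested by edgeR 4.0.16 quasi-likelihood in R 4.3.3 (4 residual degrees of freedom). The line as a block (2 residual degrees of freedom), DESeq2 1.42.0, limma-voom (limma 3.58.1), RLE and upper-quartile factors, no filter, and leaving out each library or line were alternatives. CPM are means over 3 libraries ± SD. SE is the log2 fold change divided by the square root of F. An exact permutation test of 3 against 3 cannot go below 0.1. The tests were checked on simulated counts.

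Line numbers pair libraries because the labels give both to the same line; deviations from group means correlated at 0.089, 0.0018 and -0.027. Gene coordinates and lengths are GENCODE M21 on GRCm38, which mm10 denotes.

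The members and lists were chosen with earlier results of these data known. Named are all members, every called gene of a list or else its 2 most abundant, and the gene most like each Id gene; the motifs were chosen after the data were seen. For 1 gene of the lists, values are not reported here.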

Additional observations from a re-analysis of the deposited data

How the results depend on the processing

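The 7 members with separate groups kept their direction in all 15 alternatives each, and so did the 5 called genes of the further lists. Groups are separate in all of these genes, so leaving out a library or a line could hardly turn their direction. The other alternatives refit the same 6 libraries, so the kept direction adds no support. The number of called members was 2, with 6 in DESeq2, 1 with the line as a replicate block, and 0 to 2 without a library or a line. The number of called genes of the further lists was 5, with 14 in DESeq2 and 0 to 5 without a library or a line. Over all genes 841 were called, with 2367 in DESeq2, 311 in the blocked fit and 19 to 700 without a library or a line. The block ended the calls of Id3 and Bmp6 and changed no other call among the members and the further lists. Signs turned in genes near 0, whose log2 fold changes without a library or a line ranged from -0.0033 to 0.125 for Bmpr1a, -0.0759 to 0.0083 for Bmpr2, -0.22 to 0.52 for Tgfbr3 and -0.0768 to 0.46 for Tcf12. For Tgfbr3 it was -0.219 without sgp53 line 3 and -0.22 without line 3, and for Bmpr2 0.0057 without sgNTC line 3. The cause was not tested. With a prior count of 0.5 all 30 differences within lines moved by less than the spread between lines. Depth limits Bmp2 and Smad6, which had 28 and 77 reads over the sgNTC libraries. It also limits genes of the further lists, with Nog (9 reads over the sgNTC libraries), Atoh8 (57) and Bmper (68) among them.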
